A study of Mus with 10 samples.

Results

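E-cadherin, encoded by *Cdh1*, and 4 catenins, encoded by *Ctnnb1*, *Jup*, *Ctnna1* and *Ctnnd1*, were examined as 5 genes of the 24564 in the count table. They were chosen by name, and *Cdh1* was selected on its count difference between the genotypes in these same libraries. Differences of these 5 genes between the genotypes are therefore given as a description, with 95% intervals and no test. Type 1 innate lymphoid cells (ILC1s), which are tissue-resident lymphocytes, were sorted from the liver of C57BL/6 mice that were 6 to 8 weeks old and, by the methods of the study, male or female. The comparison was between 5 libraries of Ncr1+/+ ILC1s (Ncr1-WT in the labels) and 5 libraries of Ncr1gfp/gfp ILC1s (Ncr1-KO in the labels). In Ncr1gfp/gfp mice *gfp* replaces *Ncr1*, the gene for the activating receptor NKp46, in every cell and not in ILC1s alone. The labels name no treatment of either genotype. Ncr1+/+ ILC1s were gated as lineage-negative NK1.1+ CD49b- CD49a+ cells with NKp46, and Ncr1gfp/gfp ILC1s with GFP in place of NKp46, so genotype and gate cannot be told apart. The mice are not described as littermates, and the study speaks of RNA pools without saying how many mice went into a library, so p-values measure the spread between these libraries, which may be technical.

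E-cadherin is a calcium-dependent adhesion molecule that binds E-cadherin on a neighbouring cell. Its cytoplasmic tail holds β-catenin (*Ctnnb1*) or plakoglobin (*Jup*), either of which recruits α-catenin (*Ctnna1*), the link to actin. p120-catenin (*Ctnnd1*) binds the tail nearer the membrane and keeps E-cadherin at the surface. β-catenin also acts in the nucleus, where it works with TCF and LEF factors downstream of Wnt. In the liver E-cadherin is best known from periportal hepatocytes and bile duct cells, and lymphocytes can bind it through the inhibitory receptor KLRG1 or the integrin αEβ7.

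The libraries held 15796253 to 22623133 counts, and a count of 3, below which a level was not told from 0, corresponded to 0.132 to 0.190 CPM (counts divided by the library's total, with TMM scaling, on the usual CPM scale of edgeR). Of all genes, 11463 passed the filter on low counts, all 5 genes of interest among them. A gene was called where the adjusted p of edgeR's quasi-likelihood test was under 0.05 and the fold was above 1.5 or below 0.7, and 0.733% of the tested genes were called, 0.201% as higher and 0.532% as lower in Ncr1gfp/gfp ILC1s. The targeted gene *Ncr1* had 1913 to 2144 CPM in Ncr1+/+ libraries and 141 to 356 CPM in Ncr1gfp/gfp libraries, so the labels and the gene matched in all 10. Of 9 tested ILC1 markers 3 had higher and 6 lower values in Ncr1gfp/gfp ILC1s, and 2 were called lower, *Ncr1* and *Il7r*, the gene for the IL-7 receptor α chain, at 166 ± 31.7 and 84.6 ± 33.4 CPM (SD, n = 5 each, log2 fold change -0.97, edgeR adjusted p = 0.00773). *Itga1* (CD49a) passed the adjusted p and not the fold (log2 fold change 0.32, edgeR adjusted p = 0.000481). The summed ILC1 markers were 6388 to 6791 CPM in Ncr1+/+ and 4700.5 to 4987 CPM in Ncr1gfp/gfp libraries. This sum includes *Ncr1* itself, so its difference contains the loss of the targeted gene and gives no measure of the other ILC1 markers. *Klrb1c* (NK1.1), *Tnfsf10* (TRAIL), *Cxcr6* and *Tbx21* had means of at least 408 CPM in both genotypes. *Xist* did not exceed 1.09 CPM and the Y-linked gene *Ddx3y* had at least 133 CPM in each of the 10 libraries. Each library of both genotypes therefore held RNA from male mice.

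*Cdh1* (chromosome 8, 109127250 to 109194147, plus strand) has 4432 bases of exon. All coordinates here are those of the deposited table. The methods of the study name mm10, but none of the 5 genes had the start and end that RefSeq gives for that assembly (GRCm38.p6), so the build of these coordinates is not known. In Ncr1+/+ replicates 1 to 5 *Cdh1* had 49.9, 45.4, 48.4, 63.7 and 49.03 CPM. In Ncr1gfp/gfp replicates 1 to 5 it had 111, 102, 92.4, 101 and 89.5 CPM. Every Ncr1gfp/gfp library was above every Ncr1+/+ library, and Ncr1+/+ replicate 4 stood above the other 4 libraries of its genotype. The means were 51.3 ± 7.13 CPM in Ncr1+/+ ILC1s and 99.2 ± 8.45 CPM in Ncr1gfp/gfp ILC1s (SD, n = 5 each). The fitted level of *Cdh1* was 1.93-fold higher in Ncr1gfp/gfp ILC1s, with a 95% interval of 1.70 to 2.20 (log2 fold change 0.95, SE 0.09). It was the 1 gene of the 5 that was called, where 0.733% of tested genes were called, and the 1 with an adjusted p under 0.05 at any fold, where 1.35% had one (0.567% higher and 0.785% lower). It was likewise the 1 gene of the 5 whose libraries did not overlap between genotypes, where 3.11% of tested genes did not overlap (1.28% higher and 1.82% lower). These counts restate how *Cdh1* came to be chosen. In these bulk libraries more cells with *Cdh1* mRNA and more *Cdh1* mRNA per cell cannot be told apart.

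The counts behind these values were 890 to 1262 reads in Ncr1+/+ libraries and 1504 to 2228 reads in Ncr1gfp/gfp libraries. Expressed as a coefficient of variation, the spread of *Cdh1* CPM was 13.9% in Ncr1+/+ and 8.52% in Ncr1gfp/gfp ILC1s. Averaged over the 10 libraries and per kilobase of exon, the level of *Cdh1* was at the 62.7th percentile of the tested genes. It was a gene of middling abundance, not a trace transcript. Without Ncr1+/+ replicate 4 the log2 fold change of *Cdh1* was 1.04, the highest value among the alternatives tried.

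**Figure D1:**
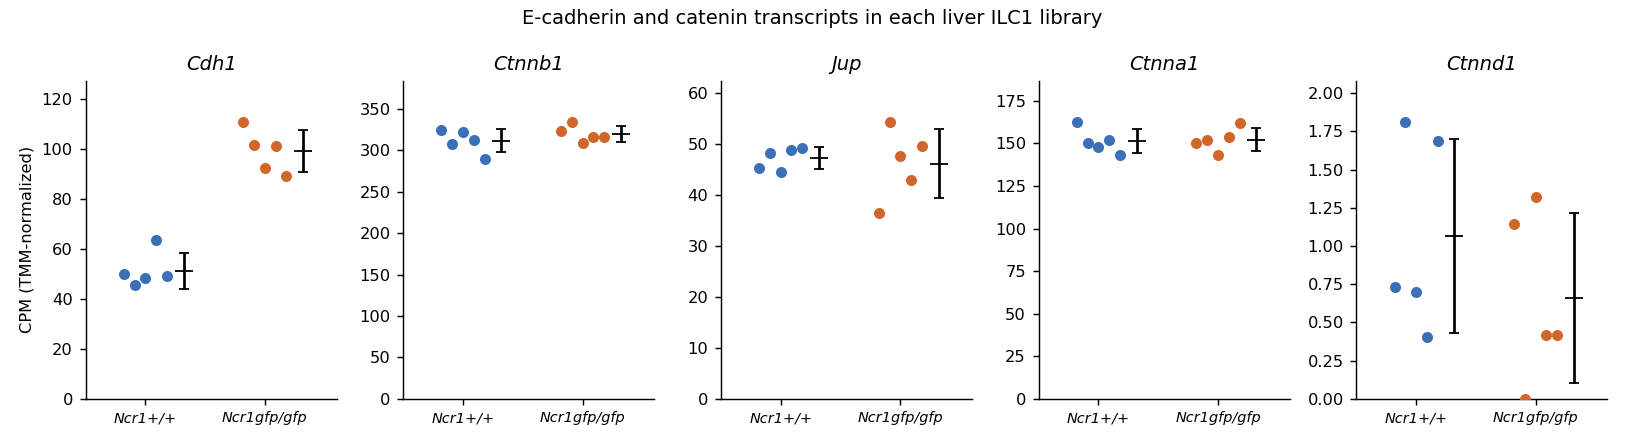
CPM of *Cdh1*, *Ctnnb1*, *Jup*, *Ctnna1* and *Ctnnd1* in each of the 5 Ncr1+/+ and 5 Ncr1gfp/gfp libraries, 1 panel a gene, with points for libraries and the mean and SD of each genotype. The genotypes separate for *Cdh1* (45.4 to 63.7 against 89.5 to 111 CPM) and overlap for each of the 4 catenins.

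β-catenin, the partner that binds the E-cadherin tail directly, was the most abundant of the 5 mRNAs. *Ctnnb1* (chromosome 9, 120842518 to 120869625, plus strand) has 3623 bases of exon. It had 325, 308, 322, 312 and 290.2 CPM in Ncr1+/+ replicates 1 to 5 and 324, 334, 309, 316 and 316 CPM in Ncr1gfp/gfp replicates 1 to 5. The genotypes overlapped, with means of 312 ± 13.9 and 319.7 ± 9.48 CPM (SD, n = 5 each). The *Ctnnb1* level in Ncr1gfp/gfp ILC1s was 1.03-fold that in Ncr1+/+ ILC1s, with an interval of 0.953 to 1.10. Its coefficient of variation was 4.47% in Ncr1+/+ and 2.97% in Ncr1gfp/gfp ILC1s, the narrowest spread of the 5 genes in both genotypes. Per kilobase of exon it was at the 95.3rd percentile of tested genes.

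Plakoglobin, which can take the place of β-catenin on the tail and is also a desmosomal protein, was far scarcer. *Jup* (chromosome 11, 100230170 to 100259104, minus strand) has 5009 bases of exon. It had 45.4, 48.4, 44.6, 48.95 and 49.2 CPM in Ncr1+/+ replicates 1 to 5 and 36.5, 54.3, 47.6, 43.0 and 49.6 CPM in Ncr1gfp/gfp replicates 1 to 5. Ncr1gfp/gfp replicates 1 and 2 held the lowest and the highest value of all 10 libraries, and the Ncr1+/+ values lay between them. The means were 47.3 ± 2.14 and 46.2 ± 6.77 CPM (SD, n = 5 each), with a fold of 0.978 and an interval of 0.849 to 1.13. *Jup* was at the 44.7th percentile of tested genes per kilobase of exon.

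α-catenin carries the link from β-catenin or plakoglobin to actin filaments. *Ctnna1* (chromosome 18, 35278566 to 35414429, plus strand) has 3676 bases of exon. It had 162, 150.4, 148, 152 and 143 CPM in Ncr1+/+ replicates 1 to 5 and 150.4, 152, 143, 154 and 162 CPM in Ncr1gfp/gfp replicates 1 to 5. These ranges almost coincided, and the means were 151 ± 7.08 and 152 ± 6.74 CPM (SD, n = 5 each). The fold was 1.01 with an interval of 0.924 to 1.10. *Ctnna1* was at the 85.7th percentile of tested genes.

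p120-catenin mRNA was near the lower end of what was measured. *Ctnnd1* (chromosome 2, 84440938 to 84499134, minus strand) has 5581 bases of exon. Its count was 13, 41, 14, 8 and 31 from Ncr1+/+ replicate 1 to replicate 5, and 18, 0, 25, 7 and 7 from Ncr1gfp/gfp replicate 1 to replicate 5. Of the 10 libraries, 9 had at least 3 counts, and the library at 0, Ncr1gfp/gfp replicate 2, allows up to 0.137 CPM. The means were 1.07 ± 0.637 and 0.660 ± 0.554 CPM (SD, n = 5 each), and the genotypes overlapped. The fold of 0.615 had an interval of 0.215 to 1.76, so wide that it held both much lower levels and folds just above 1.70, the lower bound for *Cdh1*. Its level was at the 0.942nd percentile of tested genes per kilobase of exon.

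Compared per kilobase of exon over all 10 libraries, the 5 mRNAs held 1 order, with β-catenin first, then α-catenin, E-cadherin, plakoglobin and p120-catenin. The level of *Ctnnb1* was 2.11-fold that of *Ctnna1*, a log2 difference of 1.08 ± 0.0567 (SD, n = 10 libraries). The level of *Ctnna1* was 2.57-fold that of *Cdh1*, with a log2 difference of 1.36 ± 0.524. *Cdh1* was 1.72-fold above *Jup*, with a log2 difference of 0.78 ± 0.580. *Jup* was 77.5-fold above *Ctnnd1*, with a log2 difference of 6.28 ± 1.55, a size that depends on the 0.01 CPM per kilobase added before log2 because *Ctnnd1* had no count in 1 library. Each difference had the same direction in 10 of 10 libraries, and each gave p = 0.00195 in a two-sided exact sign-flip permutation test, which is the smallest p that 10 libraries can give and stayed 0.00195 after Benjamini-Hochberg adjustment over the 4 pairs. Within a genotype the order also held in 5 of 5 libraries for every pair, where 5 libraries cannot give a p below 0.0625. The pairs were formed by sorting these same levels, with both genotypes pooled. Those with *Cdh1* also use the values that led to its choice, so the p-values describe the order and are no independent support. The exon length is that of the whole gene, so a gene of which a shorter isoform is used would be understated.

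The place of *Cdh1* in this order was close to that of *Jup* in Ncr1+/+ ILC1s and moved towards that of *Ctnna1* in Ncr1gfp/gfp ILC1s. In Ncr1+/+ ILC1s *Cdh1* had 11.6 ± 1.61 CPM per kilobase beside 9.45 ± 0.428 for *Jup* and 41.1 ± 1.93 for *Ctnna1* (SD, n = 5). In Ncr1gfp/gfp ILC1s *Cdh1* had 22.4 ± 1.91 CPM per kilobase beside 9.23 ± 1.35 for *Jup* and 41.4 ± 1.83 for *Ctnna1*. *Cdh1* was 1.22-fold above *Jup* in the former and 2.44-fold above it in the latter.

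**Figure D2:**
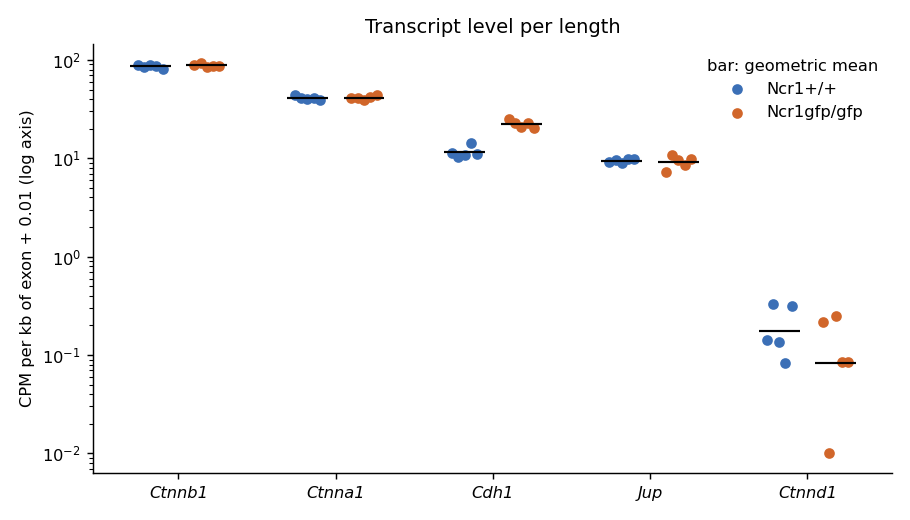
Level of the 5 mRNAs in CPM per kilobase of exon, with 0.01 added, on a log axis, with points for the 10 libraries coloured by genotype and bars for the geometric mean of each genotype. *Ctnnb1* (means 86.0 and 88.2 CPM per kilobase) stood highest, *Ctnnd1* (0.191 and 0.118) lowest, and *Cdh1* lay between *Ctnna1* and *Jup* in every library.

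Set against its partners, *Cdh1* mRNA was 0.135 ± 0.0191 of the *Ctnnb1* level per kilobase in Ncr1+/+ ILC1s, with a range of 0.121 to 0.167, and 0.253 ± 0.0183 in Ncr1gfp/gfp ILC1s, with a range of 0.231 to 0.279 (SD, n = 5 each). E-cadherin mRNA was thus the minor partner of β-catenin mRNA in both genotypes. The ratio of *Ctnna1* to *Ctnnb1* was 0.478 ± 0.0151 and 0.469 ± 0.0225, and that of *Jup* to *Ctnnb1* was 0.110 ± 0.00954 and 0.105 ± 0.0148. Of the summed level of the 5 mRNAs, *Cdh1* made up 7.80 ± 0.987% in Ncr1+/+ and 13.9 ± 1.04% in Ncr1gfp/gfp ILC1s, and *Ctnnb1* made up 58.0 ± 1.11% and 54.7 ± 0.467%. These ratios share the *Cdh1* values that led to its choice and are a description. Among libraries of 1 genotype the catenins did not follow *Cdh1* closely. Over the 10 libraries, as deviations from their genotype means, the Pearson correlation with *Cdh1* on the log2 CPM scale was 0.234 for *Ctnnb1*, 0.0154 for *Ctnna1*, -0.259 for *Jup* and -0.339 for *Ctnnd1*.

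Genes around E-cadherin were read from 10 lists with 161 genes in all, of which 28 had no count in any library and 106 were tested. Of the tested genes, 2 were called (1.89%, beside 0.733% of all tested genes), both lower in Ncr1gfp/gfp ILC1s. They were *Furin* and *Tcf7*. The number called was 0 to 4 in the alternatives. All lists were chosen with earlier results of these data known. The share and the p-values of list genes are therefore a description and no unbiased comparison with all tested genes. The median log2 fold change of the 106 genes was -0.00, as it was 0.00 for all tested genes. The genes named below without a passing test are the most abundant of their list, or were chosen after their values were seen for their known part in E-cadherin biology.

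Of 28 other classical, atypical and desmosomal cadherins, 15 had no count in any library, among them N-cadherin (*Cdh2*) and P-cadherin (*Cdh3*), and 6 were tested. None of the 6 was called by edgeR, DESeq2 or limma-voom, and 4 had an unadjusted p under 0.05 in edgeR. Of these 4, *Cdh17* and *Dsg2* were higher and *Cdh24* and *Dsc2* lower in Ncr1gfp/gfp ILC1s. *Cdh17*, which encodes liver-intestine cadherin, was the other abundant cadherin, with 52.3 to 65.7 CPM in Ncr1+/+ and 58.9 to 113 CPM in Ncr1gfp/gfp libraries. These ranges overlapped (log2 fold change 0.41, SE 0.13, edgeR adjusted p = 0.13). Per kilobase *Cdh17* was above *Cdh1* in 5 of 5 Ncr1+/+ libraries, at 15.1 to 19.0 against 10.3 to 14.4 CPM per kilobase, and in 3 of 5 Ncr1gfp/gfp libraries. *Cdh24* had 23.6 ± 0.806 CPM in Ncr1+/+ and 17.7 ± 3.92 CPM in Ncr1gfp/gfp ILC1s (log2 fold change -0.42, edgeR adjusted p = 0.163). *Cdh1* made up 29.9 ± 2.71% of the summed cadherin level per kilobase in Ncr1+/+ ILC1s and 42.3 ± 3.36% in Ncr1gfp/gfp ILC1s (SD, n = 5 each). This share contains the *Cdh1* values that led to its choice and is a description.

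Other catenins and plakophilins were read in a list of 10 genes, most of which share the armadillo fold or the vinculin-like fold of the catenins. Of these 10 genes, 7 were tested and none was called by the 3 tools. In edgeR 1 of the 7 had an unadjusted p under 0.05. *Ctnna2*, *Ctnna3* and *Pkp1* had no count in any library. The closest relatives of p120-catenin that were well measured were *Pkp4*, at 104 ± 9.81 and 93.2 ± 11.3 CPM (log2 fold change -0.16, edgeR adjusted p = 0.491), and *Pkp3*, at 48.6 ± 6.56 and 50.2 ± 4.46 CPM (0.05, edgeR adjusted p = 0.92). *Arvcf* and *Ctnnd2*, the other p120 family genes, had means of 1.49 CPM or less in both genotypes, like *Ctnnd1* itself.

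Among 20 tested junction and actin partners none was called in edgeR, where 3 had an unadjusted p under 0.05, and DESeq2 called 1. *Tln1* (talin), *Iqgap1*, *Evl* and *Cdc42*, all general regulators of the actin cytoskeleton or its anchorage, had means of at least 583 CPM in both genotypes. The gene DESeq2 called was *Vcl*, for vinculin, which binds stretched α-catenin, with 16.3, 15.4, 14.6, 14.3 and 12.8 CPM from highest to lowest in Ncr1+/+ and 13.1, 10.6, 8.68, 6.99 and 5.02 CPM in Ncr1gfp/gfp libraries. These ranges overlapped by 1 library a genotype (log2 fold change -0.73, SE 0.20, edgeR adjusted p = 0.078). *Afdn*, for the junction scaffold afadin, had 88.7 and 99.1 CPM (log2 fold change 0.16, edgeR adjusted p = 0.456).

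**Figure D3:**
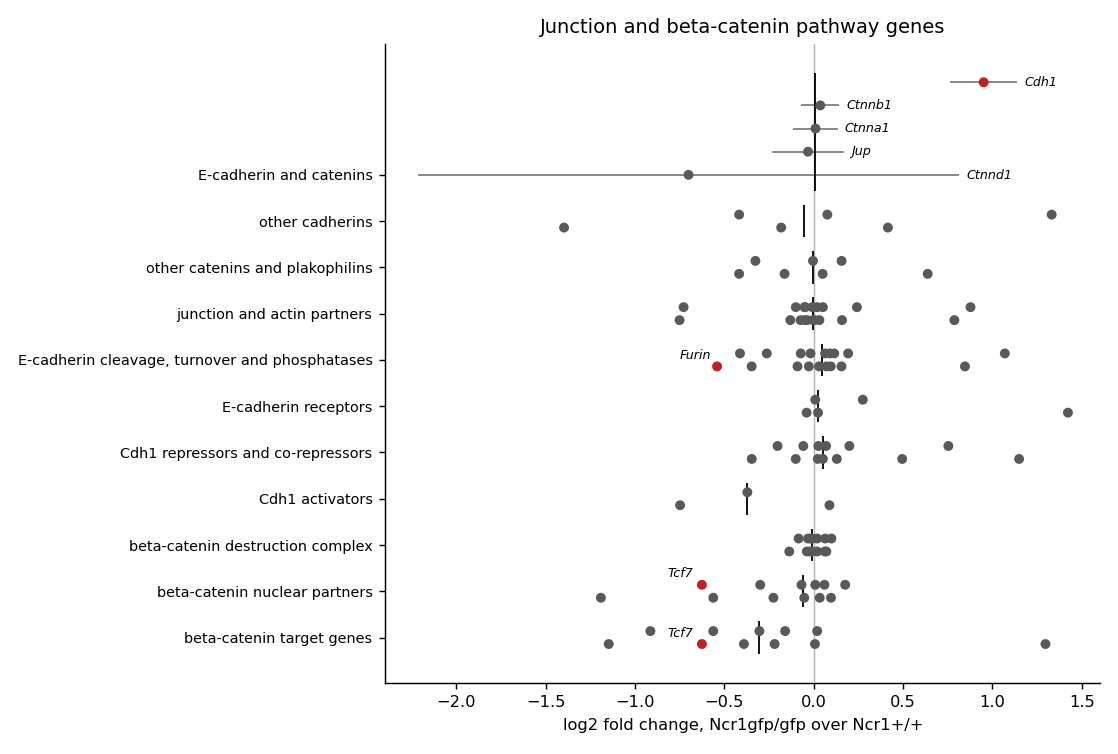
Log2 fold change (Ncr1gfp/gfp over Ncr1+/+, x axis) of the 5 genes and of each tested gene in 10 related lists, 1 point a gene. Red points were called, vertical bars are list medians, horizontal lines are 95% intervals of the 5 genes, and *Cdh1* at 0.95 stands apart from *Ctnnb1*, *Ctnna1* and *Jup*, which lie within 0.04 of 0.

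Enzymes that cut, tag or dephosphorylate E-cadherin gave 18 tested genes, of which 1 was called. *Furin*, the proprotein convertase that removes the E-cadherin prodomain, had 205.7 to 304 CPM in Ncr1+/+ and 149 to 194 CPM in Ncr1gfp/gfp libraries without overlap (log2 fold change -0.54, SE 0.09, edgeR adjusted p = 0.00235). Its fold was no longer past 0.7 without Ncr1+/+ replicate 4 (log2 fold change -0.44, edgeR adjusted p = 0.00663) or without Ncr1gfp/gfp replicate 3 (-0.51, edgeR adjusted p = 0.0106). *Psen2*, a catalytic subunit of γ-secretase, had 81.7 ± 7.05 and 61.4 ± 9.77 CPM, which passed the adjusted p but not with a separation of the libraries (log2 fold change -0.41, edgeR adjusted p = 0.0334). *Adam10*, the main sheddase of E-cadherin, had 247 ± 20.7 and 244 ± 14.4 CPM (log2 fold change -0.02, edgeR adjusted p = 0.953). *Ncstn*, for the γ-secretase subunit nicastrin, had an adjusted p of 0.743 in edgeR.

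Receptors that bind E-cadherin on another cell were tested as 5 genes, none of them called by the 3 tools, with 1 unadjusted p under 0.05 in edgeR. Integrin αEβ7 was represented by its β chain gene *Itgb7*, at 716 ± 57.8 and 728 ± 30.9 CPM, while its α chain gene *Itgae* had 0.661 ± 0.499 and 1.79 ± 1.91 CPM (log2 fold change 1.42, edgeR adjusted p = 0.515). *Klrg1* had 5.31 ± 2.02 and 5.34 ± 1.28 CPM (log2 fold change 0.01, edgeR adjusted p = 0.997). *Itga2*, which encodes CD49b and pairs with *Itgb1*, had a mean of 40.5 CPM in Ncr1+/+ ILC1s, although the gate excluded CD49b+ cells (log2 fold change 0.27, edgeR adjusted p = 0.331).

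Of 13 tested repressors of *Cdh1* transcription and their co-repressors none was called by the 3 tools, and 1 had an unadjusted p under 0.05 in edgeR. *Zeb1* had 119 ± 10.9 and 115 ± 7.29 CPM (log2 fold change -0.06, SE 0.07, edgeR adjusted p = 0.844), and *Zeb2* had 6.93 ± 1.90 and 7.05 ± 2.81 CPM (0.02, edgeR adjusted p = 0.987). *Snai1* was at 1.08 and 0.849 CPM, *Snai2* was too low to be tested and *Twist1* had no count. Of 14 factors known to activate *Cdh1* or epithelial genes 3 were tested, and the epithelial factors *Grhl3*, *Elf3* and *Foxa2* had no count in any library. *Runx3* had 334 and 355 CPM (log2 fold change 0.09, edgeR adjusted p = 0.638). *Runx1* had 194 to 249 CPM in Ncr1+/+ and 142 to 189 CPM in Ncr1gfp/gfp libraries, without overlap and lower by an amount that did not reach the fold limit (log2 fold change -0.37, SE 0.08, edgeR adjusted p = 0.0163).

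The genes that handle free β-catenin were examined in the same way. Of 14 tested genes of the destruction complex, which marks β-catenin for degradation, none was called by the 3 tools, 1 had an unadjusted p under 0.05 in edgeR, and the log2 fold changes lay between -0.14 and 0.10. *Axin2*, a complex member that is also a β-catenin target, had 37.4 ± 6.09 and 37.9 ± 4.06 CPM (log2 fold change 0.02, edgeR adjusted p = 0.973). Of 12 tested nuclear partners 1 was called in edgeR, where 5 had an unadjusted p under 0.05. *Tcf7*, for the β-catenin partner TCF-1 and counted among the targets too, had 63.1 to 97.3 CPM in Ncr1+/+ and 35.0 to 64.6 CPM in Ncr1gfp/gfp libraries (log2 fold change -0.63, SE 0.14, edgeR adjusted p = 0.0247). Its call was lost in DESeq2 (adjusted p = 0.0567) and in 5 of the 10 fits that left out 1 library, those without Ncr1+/+ replicate 1 or 3 or Ncr1gfp/gfp replicate 2, 3 or 4 (edgeR adjusted p = 0.0592 to 0.0837). *Lef1* had 21.9 ± 1.53 and 14.8 ± 3.34 CPM (log2 fold change -0.56, SE 0.14, edgeR adjusted p = 0.0529). It was called by DESeq2, with no filter on low counts and with at least 10 counts asked of every library. A replicate block and leaving out Ncr1gfp/gfp replicate 5 also gave the call. Of 11 tested target genes the median log2 fold change was -0.30, and 6 had an unadjusted p under 0.05 in edgeR. *Tcf7* was the 1 called in edgeR. Among the others *Myc* had 87.8 and 71.1 CPM (edgeR adjusted p = 0.0902) and *Cd44* had 565 and 486 CPM (edgeR adjusted p = 0.0527).

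Because epithelial cells of the liver carry *Cdh1*, their markers were read in the same libraries. Of 12 cholangiocyte and epithelial markers, *Krt19*, *Sox9*, *Cldn3*, *Cldn4* and *Cdh16* had no count in any library and 1 was tested. That gene was *Epcam*, at 15.1 and 21.1 CPM (log2 fold change 0.49, edgeR adjusted p = 0.232). The summed CPM of the list was 10.6 to 19.9 in Ncr1+/+ libraries, with the highest value in replicate 4, and 15.5 to 27.2 in Ncr1gfp/gfp libraries, so the groups overlapped. Hepatocyte markers summed to 135 to 181 CPM in Ncr1+/+ and 123 to 216 CPM in Ncr1gfp/gfp libraries. Without the highest library of each genotype in this sum, a choice made after seeing the data, the log2 fold change of *Cdh1* was 0.96. This value rests on the *Cdh1* levels that led to its choice. The part of hepatocyte or epithelial RNA in the *Cdh1* difference was not tested. *Cdh5*, the endothelial cadherin, had means of 0.316 and 0.490 CPM. Kupffer cell markers summed to 7.51 to 52.9 CPM in Ncr1+/+ and 6.76 to 42.1 CPM in Ncr1gfp/gfp libraries, and neutrophil, stellate and B cell lists stayed at or under 12.3 CPM in every library.

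The sums of T cell and NK cell markers were higher in Ncr1gfp/gfp libraries, while B cell sums overlapped. Summed T cell markers were 731 to 871 CPM in Ncr1+/+ and 937 to 1175 CPM in Ncr1gfp/gfp libraries, without overlap, and 2 of 8 tested were called higher, beside 0.201% of all tested genes. These were *Cd3e*, at 5.72 and 21.1 CPM (log2 fold change 1.88, edgeR adjusted p = 0.00235), and *Cd8a*, at 6.69 and 19.4 CPM (1.53, edgeR adjusted p = 0.0248). *Cd3g*, already abundant in Ncr1+/+ ILC1s, passed the adjusted p and not the fold (log2 fold change 0.45, edgeR adjusted p = 0.00169), and *Cd8b1*, *Cd5* and *Cd6* were too low to be tested. Summed NK cell markers were 164 to 205 CPM in Ncr1+/+ and 221 to 334 CPM in Ncr1gfp/gfp libraries, again without overlap, with *Itgam* (log2 fold change 0.96, edgeR adjusted p = 5.59e-05) and *Klra7* (1.57, edgeR adjusted p = 0.00235) called higher of 8 tested, beside the same 0.201%. *Klra4* had no count in any library. Dendritic cell markers were 1330 to 1462 CPM in Ncr1+/+ and 1653 to 1769 CPM in Ncr1gfp/gfp libraries, most of it *Itgax*, which lymphocytes also express. The part of these cells or genes in the *Cdh1* difference was not tested. The marker lists too were chosen with earlier results of these data known, so their shares of called genes are a description.

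**Figure D4:**
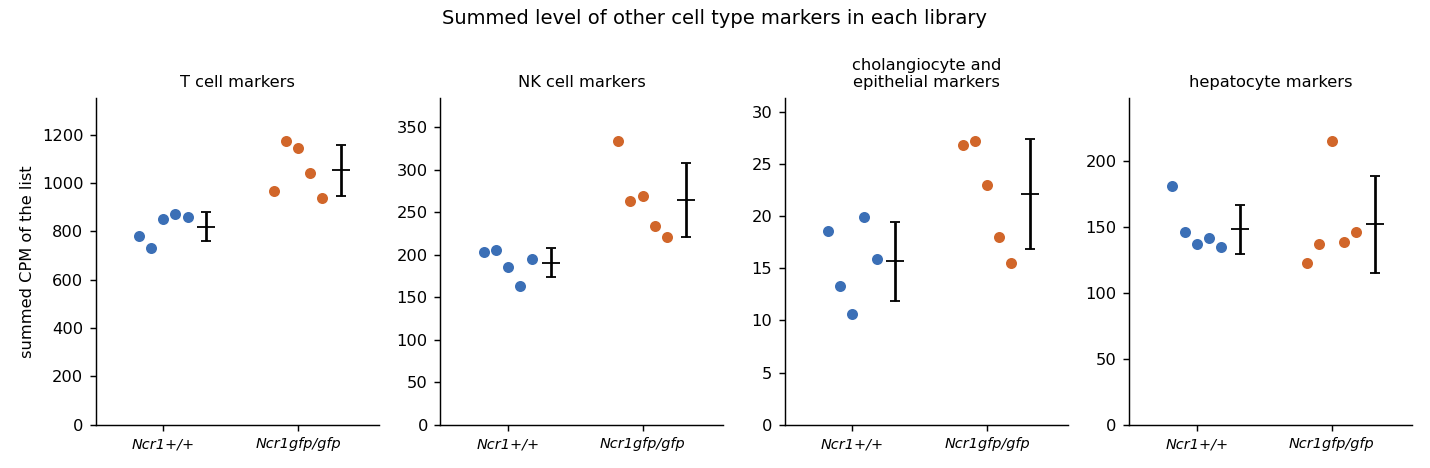
Summed CPM of marker lists in each of the 10 libraries, 1 panel a list, with points coloured by genotype and the mean and SD of each genotype beside them. The T cell and NK cell sums are higher in all 5 Ncr1gfp/gfp libraries than in any Ncr1+/+ library, while the epithelial (10.6 to 19.9 and 15.5 to 27.2 CPM) and hepatocyte sums overlap.

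The genes whose log2 CPM over the 10 libraries was most like that of *Cdh1* were sought among tested genes with a mean of at least 10 CPM. They were *Itga1* (Pearson r = 0.967), *2900026A02Rik* (0.965), *Mtf2* (0.963), *Itgax* (0.962) and *Lta4h* (0.949). *Itga1*, which encodes the CD49a of the ILC1 gate, had 732 to 805 CPM in Ncr1+/+ and 928 to 1012 CPM in Ncr1gfp/gfp libraries. The genes with the most opposite pattern were *Rnase4* (r = -0.982), *Eps8l1* (-0.965), *Maf* (-0.964), *Stk24* (-0.946) and *Wls* (-0.936). *Eps8l1* had 15.0 to 61.9 CPM in Ncr1+/+ libraries and was nearly absent from Ncr1gfp/gfp libraries, at 0 to 0.688 CPM. *Maf* encodes a transcription factor and had means of 122 and 87.8 CPM, and *Wls*, whose product carries Wnt proteins to the cell surface, had 92.0 and 62.8 CPM. All points share the split into genotypes, which alone gives high values of r. As deviations from the genotype means, r was between 0.560 and 0.776 for the 5 alike genes and between -0.774 and -0.541 for the 5 opposite ones. These genes were picked by r over the same libraries, which contains these deviations. The choice alone therefore raises the size of these values, which are a description.

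**Figure D5:**
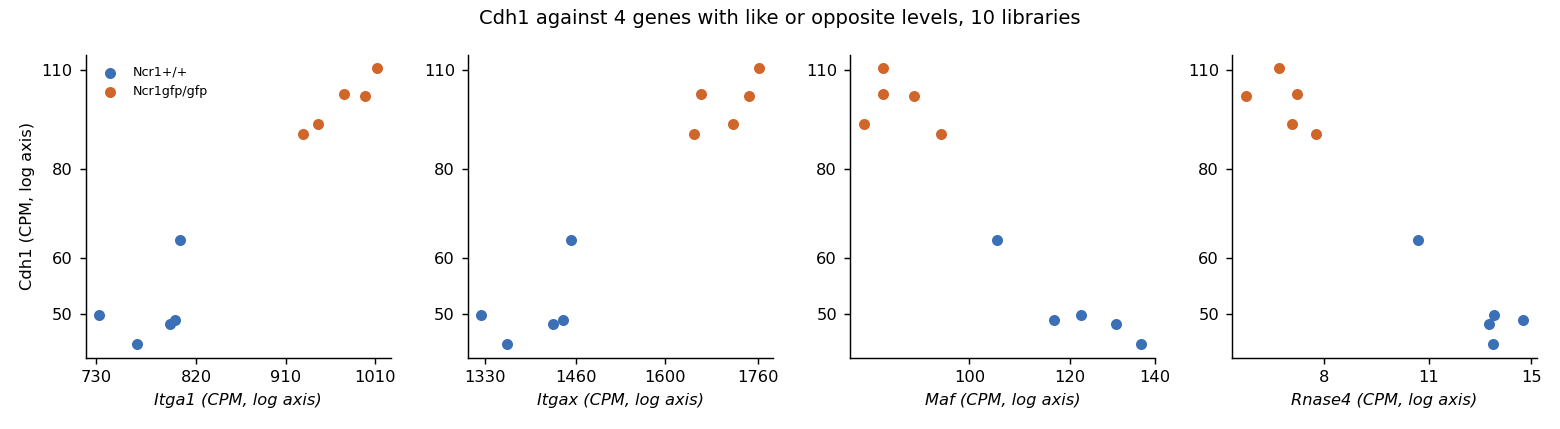
CPM of *Cdh1* (y axis) against that of *Itga1*, *Itgax*, *Maf* and *Rnase4* (x axes), 1 panel a gene, both on log axes, with a point for each of the 10 libraries coloured by genotype. *Cdh1* is higher where *Itga1* is higher (r = 0.967) and lower where *Rnase4* is higher (r = -0.982), and in each panel the genotypes form separate groups.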

How the data were processed

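RNA from sorted liver ILC1s (2 ng a library) was made into cDNA with SMART-Seq v4 and sequenced as single reads of 51 cycles. The authors trimmed reads with Trimmomatic and FASTP, aligned with STAR, and made gene counts by HTSeq. The deposited counts are whole and not normalized, for 24564 genes, beside gene coordinates and exon lengths, whose build is not known because they differ from the mm10 that the authors name for alignment. The kit does not mark strand, so reads of overlapping genes cannot be told apart. Libraries were grouped by their source labels, 5 a genotype.

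Genes were filtered with filterByExpr, TMM-scaled, and tested by the quasi-likelihood method of edgeR (edgeR 4.0.16, limma 3.58.1, R 4.3.3), with Benjamini-Hochberg adjustment over 11463 genes and the thresholds named in the study's methods. DESeq2 1.42.0, limma-voom, other scalings and filters, a replicate block and leaving out each library were the alternatives. The script was tested on simulated data. Levels of different genes were compared as CPM per kilobase of exon, with 0.01 added before log2. Figures were drawn with matplotlib 3.10.9. Intervals and detection limits cover counting error only where they rest on counts of 1 library.

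The 5 genes and all lists were chosen with earlier results of these data known. Named are the 5 genes, *Ncr1*, list genes with adjusted p under 0.05, up to 4 genes of highest level per kilobase in a list (5 for cell markers), and the 5 most and 5 least correlated with *Cdh1*, and further genes are said to have been chosen after their values were seen. No sequence is printed.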

Additional observations from a re-analysis of the deposited data

Results flagged for a closer look

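Outlying libraries were sought in 36 groups of 5 libraries, each group a gene, a marker sum or the library total in 1 genotype. A library was singled out where its gap to the nearest other, divided by the range of the group, passed Dixon's limit of 0.71. This happened 4 times, where chance alone gives about 1.8. *Cdh1* had 63.7 CPM in Ncr1+/+ replicate 4, where the next library had 49.9 CPM (gap over range 0.756). Summed hepatocyte markers were 181 CPM in Ncr1+/+ replicate 1, with 146 CPM in the next library, and 216 CPM in Ncr1gfp/gfp replicate 3, again with 146 CPM in the next. Summed neutrophil markers were 12.3 CPM in Ncr1gfp/gfp replicate 3 and 1.72 CPM in the next library.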

How the results depend on the processing

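Over 18 alternatives the log2 fold change of *Cdh1* was 0.90 to 1.04, which, as *Cdh1* was selected on these values, is a description of its range and no support. No catenin was called in any. Log2 fold changes of *Ctnnb1* were 0.01 to 0.06, of *Ctnna1* -0.01 to 0.06, of *Jup* -0.10 to 0.04 and of *Ctnnd1* -1.25 to -0.37, so the sign of *Ctnna1* and *Jup* was not fixed. *Ctnnd1* was not tested where at least 10 counts were asked of every library. The mean level differences kept their sign in each alternative. Without division by length they were 1.06, 1.09, 0.61 and 6.45 on the log2 scale. *Cdh1* was then above *Jup* in 5 of 5 Ncr1gfp/gfp libraries but in 3 of 5 Ncr1+/+ libraries, not in replicates 2 and 5. The exact sign-flip permutation test gave this pair an adjusted p of 0.00781 over the 10 libraries. That p pools the genotypes and uses the values that led to the choice of *Cdh1*. The pair was also formed by sorting these levels, so the p is no independent support.

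Called genes numbered 84 (23 higher, 61 lower). DESeq2 called 128 (39 higher), no filter on low counts 131 (36 higher, 95 lower), and the adjusted p at any fold 155. Leaving out 1 library gave 60 to 98 genes, 17 to 28 of them higher and 40 to 71 lower, the 40 without Ncr1+/+ replicate 1. Of the related lists 2 genes were called, but 4 with no filter, 1 without the 2 libraries highest in hepatocyte markers, and 0 to 4 without 1 library, the 0 without Ncr1gfp/gfp replicate 3 and the 4 without Ncr1gfp/gfp replicate 5. Where 1 was left it was *Furin*, except without Ncr1+/+ replicate 4, where it was *Tcf7*. The causes were not tested.

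No pairing of the libraries by replicate number was seen. Deviations of same-numbered libraries correlated at -0.0173 to 0.0442, and none was closest to its own number. With a replicate block 87 genes were called, 3 of them in the related lists (*Furin*, *Lef1* and *Tcf7*). Depth limits *Ctnnd1* most, at 0 to 41 counts a library. Gate and genotype cannot be told apart, and protein was not measured here.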

Other observations

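Genes were also ranked by how they followed *Cdh1* among libraries of 1 genotype. As deviations from the genotype means over the 10 libraries, r was 0.889 for *Klhl5*, 0.868 for *Cnnm4*, 0.863 for *Bcl10* and *Ubash3a* and 0.853 for *Lrmp*. It was -0.945 for *Zswim6*, -0.935 for *Abhd10*, -0.908 for *Zfp87*, -0.901 for *Gpatch2l* and -0.891 for *Zfand6*. These are the extremes of all tested genes with a mean of at least 10 CPM and are given as values. None of these genes differed between genotypes in edgeR at an adjusted p under 0.05.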
